A study of Mus musculus with 23 samples.

Results

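The genes described here make cholesterol and fatty acids. They are 32 genes in 2 arms, 21 of the sterol arm and 11 of the fatty acid arm, and were chosen by name from the 41388 genes of a table of RNA-seq counts from mouse lung. The name of each was matched to its Ensembl ID through the GENCODE M21 annotation. All 32 were found, and all 32 were among the 17148 genes with enough reads to test.

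Each library came from the lung of 1 male Balb/c mouse. The mice breathed an aerosol for 10 min on each of 3 days, and 1 h after each exposure received an injection into the peritoneum. The groups were LPS+recAAT, LPS+oxAAT, LPS+nAAT and LPS with 5 libraries each, and air with 3 libraries. All but the air mice breathed bacterial lipopolysaccharide (LPS) at 0.21 mg/ml, and the air mice breathed clean air. The 3 AAT groups received alpha1-antitrypsin (AAT), a plasma inhibitor of neutrophil elastase, at 4 mg/kg. The recombinant protein was recAAT, oxAAT was oxidized and nAAT was the native form. LPS and air mice received saline, and each experiment ended 6 h past the final injection. The labels do not give the age of the mice, and they speak of 5 mice per group, of which 3 air libraries were analysed here. Air mice had no AAT, so the design holds no group with AAT and without LPS.

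Cells build cholesterol from acetyl-CoA through mevalonate, squalene and lanosterol, and they build fatty acids from the same precursor. The transcription factor SREBP2, the product of Srebf2, drives the sterol genes, and SREBP1, the product of Srebf1, drives mainly the fatty acid genes. When sterols are plentiful the INSIG proteins hold the SREBP escort protein SCAP in the endoplasmic reticulum, which lowers the output of both. Insig1 is itself an SREBP target. In the lung, alveolar type 2 cells make the lipids of surfactant, and macrophages take up and turn over surfactant lipid and cholesterol.

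Gene counts ran from 14.8 to 47.9 M per library. The members were well covered, with 91 reads for Elovl6 in the library where it was lowest and 66345 reads for Scd1 in the library where it was highest. The libraries form 2 sets that the labels do not name, read from 2 mitochondrial genes on opposite strands. The ratio of mt-Nd6 to mt-Nd5 counts was 0.34% to 1.14% in the first set of 15 libraries and 3.39% to 4.5% in the second set of 8. The second set held all 5 LPS+recAAT libraries and LPS+oxAAT replicates 5103, 5104 and 5105, and no LPS or air library. Between LPS+recAAT and LPS the set and the treatment therefore cannot be told apart, except through the LPS+oxAAT group, which has libraries in both sets. The lung label was checked on 10 markers of alveolar type 2 cells, whose summed level was 14919 to 20653 CPM (gene counts scaled for library size), and the surfactant gene Sftpb alone had at least 3761 CPM in every library. In these whole-lung samples fewer cells of a type and less RNA per cell cannot be told apart. Nothing in the labels says whether mice of a group shared a cage or litter, and p-values measure the spread between these libraries.

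Per kilobase of exon, the fatty acid arm held the most abundant members. Scd1, the stearoyl-CoA desaturase that makes oleate, stood first at 251 CPM per kilobase in LPS libraries and 199 in air libraries. Its paralog Scd2 followed, at 141 in LPS and 165 in air. Acly, which makes cytosolic acetyl-CoA from citrate, had 56.1 in LPS and 58.2 in air. The most abundant sterol members in air were Hmgcs1, the HMG-CoA synthase, at 24 in LPS and 33.2 in air, Srebf2 at 31.0 in LPS and 30.5 in air, and Insig1 at 17.5 in LPS and 30.6 in air. In LPS, Pmvk at 18.6 and Ebp, a sterol isomerase, at 18 stood above Insig1. The lowest member was the fatty acid elongase Elovl6, at 1.04 in LPS and 1.11 in air, and Tm7sf2, a sterol reductase, had 2.7 in LPS and 2.84 in air. In air, 7 of the 10 highest levels per kilobase belonged to the fatty acid arm. Scd1 and Scd2 are close paralogs, and how reads that fit both were divided was not measured.

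**Figure D1:**
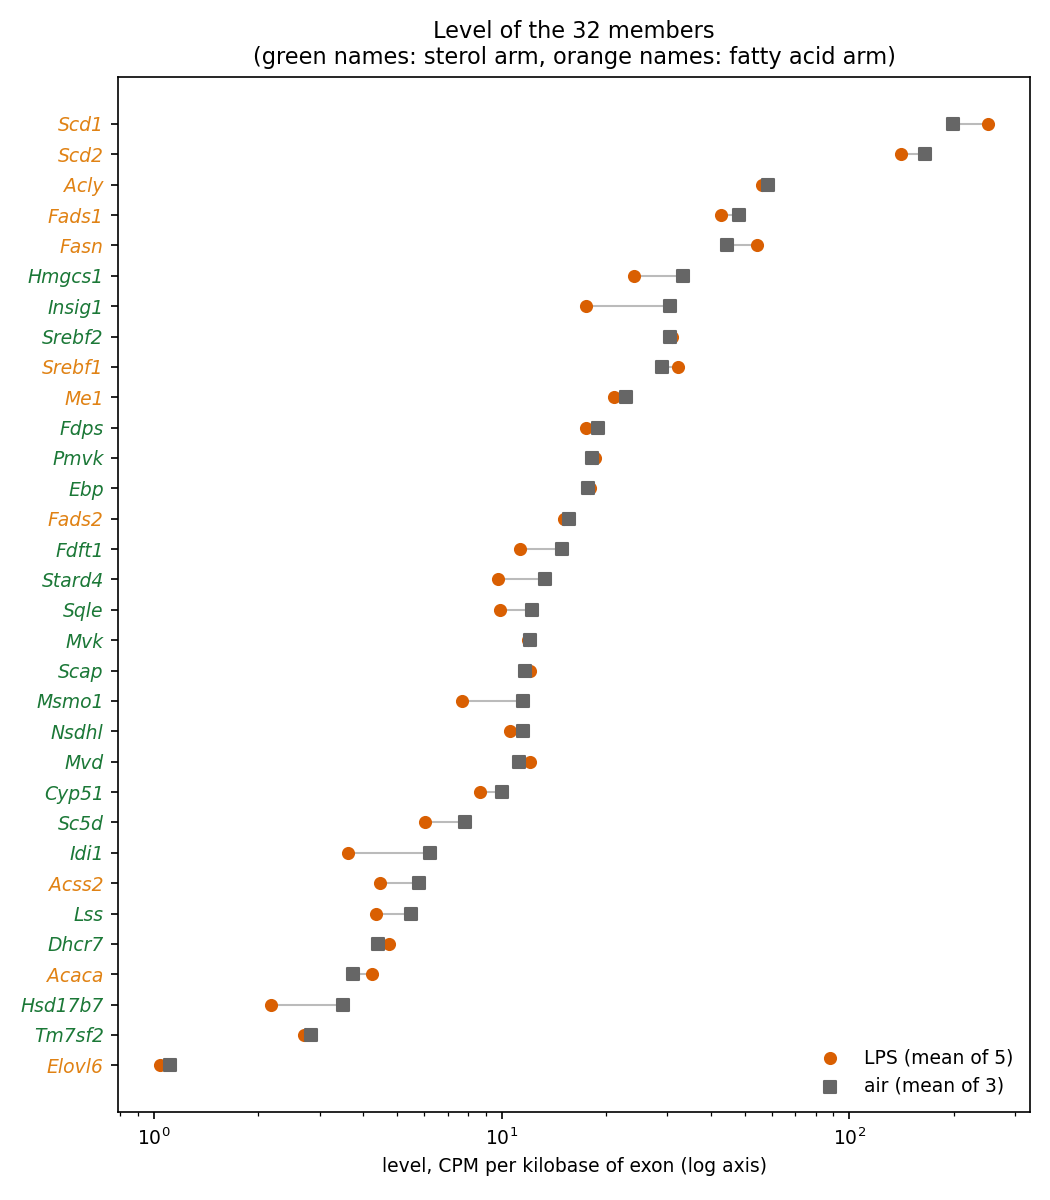
Mean level of each member in CPM per kilobase of exon, on a log axis, in LPS libraries (orange circles, mean of 5) and air libraries (grey squares, mean of 3); sterol arm names are green and fatty acid arm names orange. Scd1 tops the order at 251 in LPS and 199 in air, and the widest gaps between the circles and squares are at Insig1, Idi1, Hsd17b7 and Msmo1.

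Promoters were in the RefSeq table for 25 of the 32 members, covering 250 bases before and 50 bases after a start site (build GRCm38.p6). It gave none for Fdft1, Fdps, Sqle, Stard4, Scd1, Scd2 and Fads1. The promoters shown are those of Insig1, Idi1 and Msmo1, whose difference after LPS passed the test under each alternative run and without any single library, and of Hmgcs1, which carries the one match to the sterol regulatory element. Capitals mark that element (TCACNCCAC) and the box of the factor NF-Y (CCAAT, read as ATTGG on the other strand), searched on both strands. The strand is that of the gene, 5′ to 3′. The promoters are those of Hmgcs1 (chr13:119690101-119690400, plus strand), Idi1 (chr13:8885356-8885655, plus strand), Msmo1 (chr8:64733529-64733828, minus strand) and Insig1 (chr5:28071162-28071461, plus strand).
Hmgcs1: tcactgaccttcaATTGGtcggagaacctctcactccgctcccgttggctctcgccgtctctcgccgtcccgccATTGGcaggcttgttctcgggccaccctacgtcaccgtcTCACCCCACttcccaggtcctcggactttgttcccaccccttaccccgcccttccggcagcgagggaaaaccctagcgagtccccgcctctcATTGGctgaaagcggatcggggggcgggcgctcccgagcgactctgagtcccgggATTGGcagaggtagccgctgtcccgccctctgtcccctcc
Idi1: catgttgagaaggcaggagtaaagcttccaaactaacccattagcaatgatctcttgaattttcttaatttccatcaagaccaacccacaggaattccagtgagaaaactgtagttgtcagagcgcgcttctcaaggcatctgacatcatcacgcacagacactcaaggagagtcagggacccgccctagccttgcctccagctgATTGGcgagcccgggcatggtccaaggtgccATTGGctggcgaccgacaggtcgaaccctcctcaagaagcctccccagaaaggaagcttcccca
Msmo1: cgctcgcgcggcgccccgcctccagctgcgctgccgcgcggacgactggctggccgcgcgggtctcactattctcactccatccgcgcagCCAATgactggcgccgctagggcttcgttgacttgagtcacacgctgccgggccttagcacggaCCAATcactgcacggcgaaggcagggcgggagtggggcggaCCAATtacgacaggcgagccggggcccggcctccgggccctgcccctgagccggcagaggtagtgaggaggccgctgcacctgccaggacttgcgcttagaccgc
Insig1: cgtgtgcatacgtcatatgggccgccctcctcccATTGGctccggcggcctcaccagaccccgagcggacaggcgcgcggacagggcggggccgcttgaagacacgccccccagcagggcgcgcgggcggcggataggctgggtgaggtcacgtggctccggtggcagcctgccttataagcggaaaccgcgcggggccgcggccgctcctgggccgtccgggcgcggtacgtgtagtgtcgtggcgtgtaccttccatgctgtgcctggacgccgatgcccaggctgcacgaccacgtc

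The sterol element matched at 137 bases before the start of Hmgcs1, where it overlapped no NF-Y box. It matched no other promoter of the 17 sterol and 8 fatty acid members present, and 1.44% of all 27025 genes in the table have it. NF-Y boxes were found for 16 of 17 sterol members (Scap had none) and for 5 of 8 fatty acid members, against 41.1% of all genes. Msmo1 had 3 boxes, Hmgcs1 had 4, Idi1 had 2 and Insig1 had 1. The Sp1 box (GGGCGG, both strands) was found for 16 of 17 sterol members and 5 of 8 fatty acid members, against 38.2% of all genes. These are matches of letters in short windows and say nothing of which factor was bound in these lungs.

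The first comparison asks which members differed after LPS alone. Of the 21 sterol members, 6 fell in LPS lungs and none rose. They were Hmgcs1 and Idi1 of the mevalonate steps, Msmo1 and Hsd17b7 of the steps after lanosterol, the sensor gene Insig1 and the sterol transfer protein gene Stard4. Over all genes 1.68% were called lower and 2.71% higher (edgeR quasi-likelihood test, Benjamini-Hochberg adjusted p under 0.05 over all 17148 genes). The median log2 fold change of the sterol arm was -0.21, against -0.01 for all genes. At an unadjusted p under 0.05 there were 10 sterol members, all lower, against 3097 of all 17148 genes in either direction. In 8 of the 21 every LPS library lay below every air library, against 5.97% of all genes (5.31% lay wholly above).

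Insig1 (chr5:28071363-28078662) had 53.3, 53.6, 52.0, 50.5 and 60.4 CPM in LPS libraries, against 92.6, 90.1 and 101 CPM in air libraries. The groups did not overlap, and the highest LPS library stayed well below the lowest air library. Its log2 fold change was -0.81 ± 0.11 (SE, adjusted p = 3.9e-05), the lowest of the 32 members, which left 57.1% of the air mean.

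Among the mevalonate genes, Hmgcs1 (chr13:119690379-119708260), the enzyme that condenses acetoacetyl-CoA and acetyl-CoA, had 112, 105, 108, 113 and 114 CPM in LPS libraries, against 162, 139 and 157 CPM in air libraries. The LPS values were tightly grouped below all air values (-0.47 ± 0.11, adjusted p = 0.00895). Idi1 (chr13:8885501-8892451), the isopentenyl diphosphate isomerase, had 12, 8.26, 13, 12.4 and 17.8 CPM in LPS libraries, against 22.2, 21 and 22.4 CPM in air libraries. LPS replicate 1105 was nearest to air, and the groups did not overlap (-0.78 ± 0.18, adjusted p = 0.00917). The other 4 genes of these steps, Mvk, Pmvk, Mvd and Fdps, which phosphorylate and decarboxylate mevalonate and build farnesyl diphosphate, had log2 fold changes from -0.12 to 0.11 and overlapped air.

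The 3 enzymes that carry farnesyl diphosphate to lanosterol lay lower without passing the test. Fdft1, the squalene synthase, had -0.41 ± 0.12 (adjusted p = 0.0591). Sqle, the squalene epoxidase, had -0.30 ± 0.10 (adjusted p = 0.0877), and for both genes every LPS library was below every air library. Lss, the lanosterol synthase, had -0.33 ± 0.13 (adjusted p = 0.175) and overlapped air.

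After lanosterol, Msmo1 (chr8:64718139-64733792), the methylsterol oxidase, had 50, 48.7, 43.2, 44.0 and 51.1 CPM in LPS libraries, against 66.7, 69.8 and 75.6 CPM in air libraries. All LPS values lay below the air values (-0.58 ± 0.11, adjusted p = 0.00161). Hsd17b7 (chr1:169949535-169969241), a sterol ketoreductase, had 6.68, 8.71, 13.2, 14.1 and 12.7 CPM in LPS libraries, against 17.2, 17.8 and 18.6 CPM in air libraries. It varied widely among LPS mice but did not reach the air values (-0.69 ± 0.18, adjusted p = 0.0274). The other 6 genes of these steps ran from -0.38 for Sc5d, the lathosterol desaturase (adjusted p = 0.0845), to 0.11 for Dhcr7, the last reductase of its branch. Cyp51, Tm7sf2, Nsdhl and Ebp lay between them, from -0.21 to 0.02.

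Stard4 (chr18:33199355-33213862), a cytosolic sterol carrier, had 52.6, 44.3, 61.6, 53.4 and 60.8 CPM in LPS libraries, against 77.1, 81.7 and 63.5 CPM in air libraries. Air replicate 2105 lay just above the highest LPS library (-0.44 ± 0.11, adjusted p = 0.0246). The genes of the regulators themselves did not pass: Srebf2 averaged 223 ± 19.9 CPM in LPS (SD, n = 5) and 219 ± 9.91 CPM in air (SD, n = 3), and Scap averaged 90.4 ± 6.88 CPM in LPS (SD, n = 5) and 87.4 ± 4.73 CPM in air (SD, n = 3). The 95% interval of the log2 fold change was -0.15 to 0.20 for Srebf2 and -0.14 to 0.24 for Scap.

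The calls of Insig1, Idi1 and Msmo1 held when any of the 8 libraries was left out and in a fit with the strand set as a term (5.37% of all genes called in either direction) or within the first set alone (3.16% called). That of Hmgcs1 was lost without air replicates 2101 (adjusted p = 0.066) or 2105 (0.0503). That of Hsd17b7 was lost without LPS replicates 1101 (0.0601) or 1102 (0.0706) or air replicates 2101 (0.0748), 2102 (0.0897) or 2105 (0.101). That of Stard4 was lost without LPS replicates 1101 (0.0548) or 1102 (0.0659) or air replicates 2101 (0.114) or 2102 (0.164). Within the first set Hsd17b7 (adjusted p = 0.0771) and Stard4 (0.0533) did not pass, at log2 fold changes of -0.67 and -0.43. With the 2 groups fitted alone they did not pass either (0.126 for Hsd17b7 and 0.107 for Stard4, at -0.68 and -0.44), and the sterol count was 4, where 2.15% of all genes were called. Without air replicate 2101 the sterol count was 3, where 2.71% of all genes were called in either direction.

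**Figure D2:**
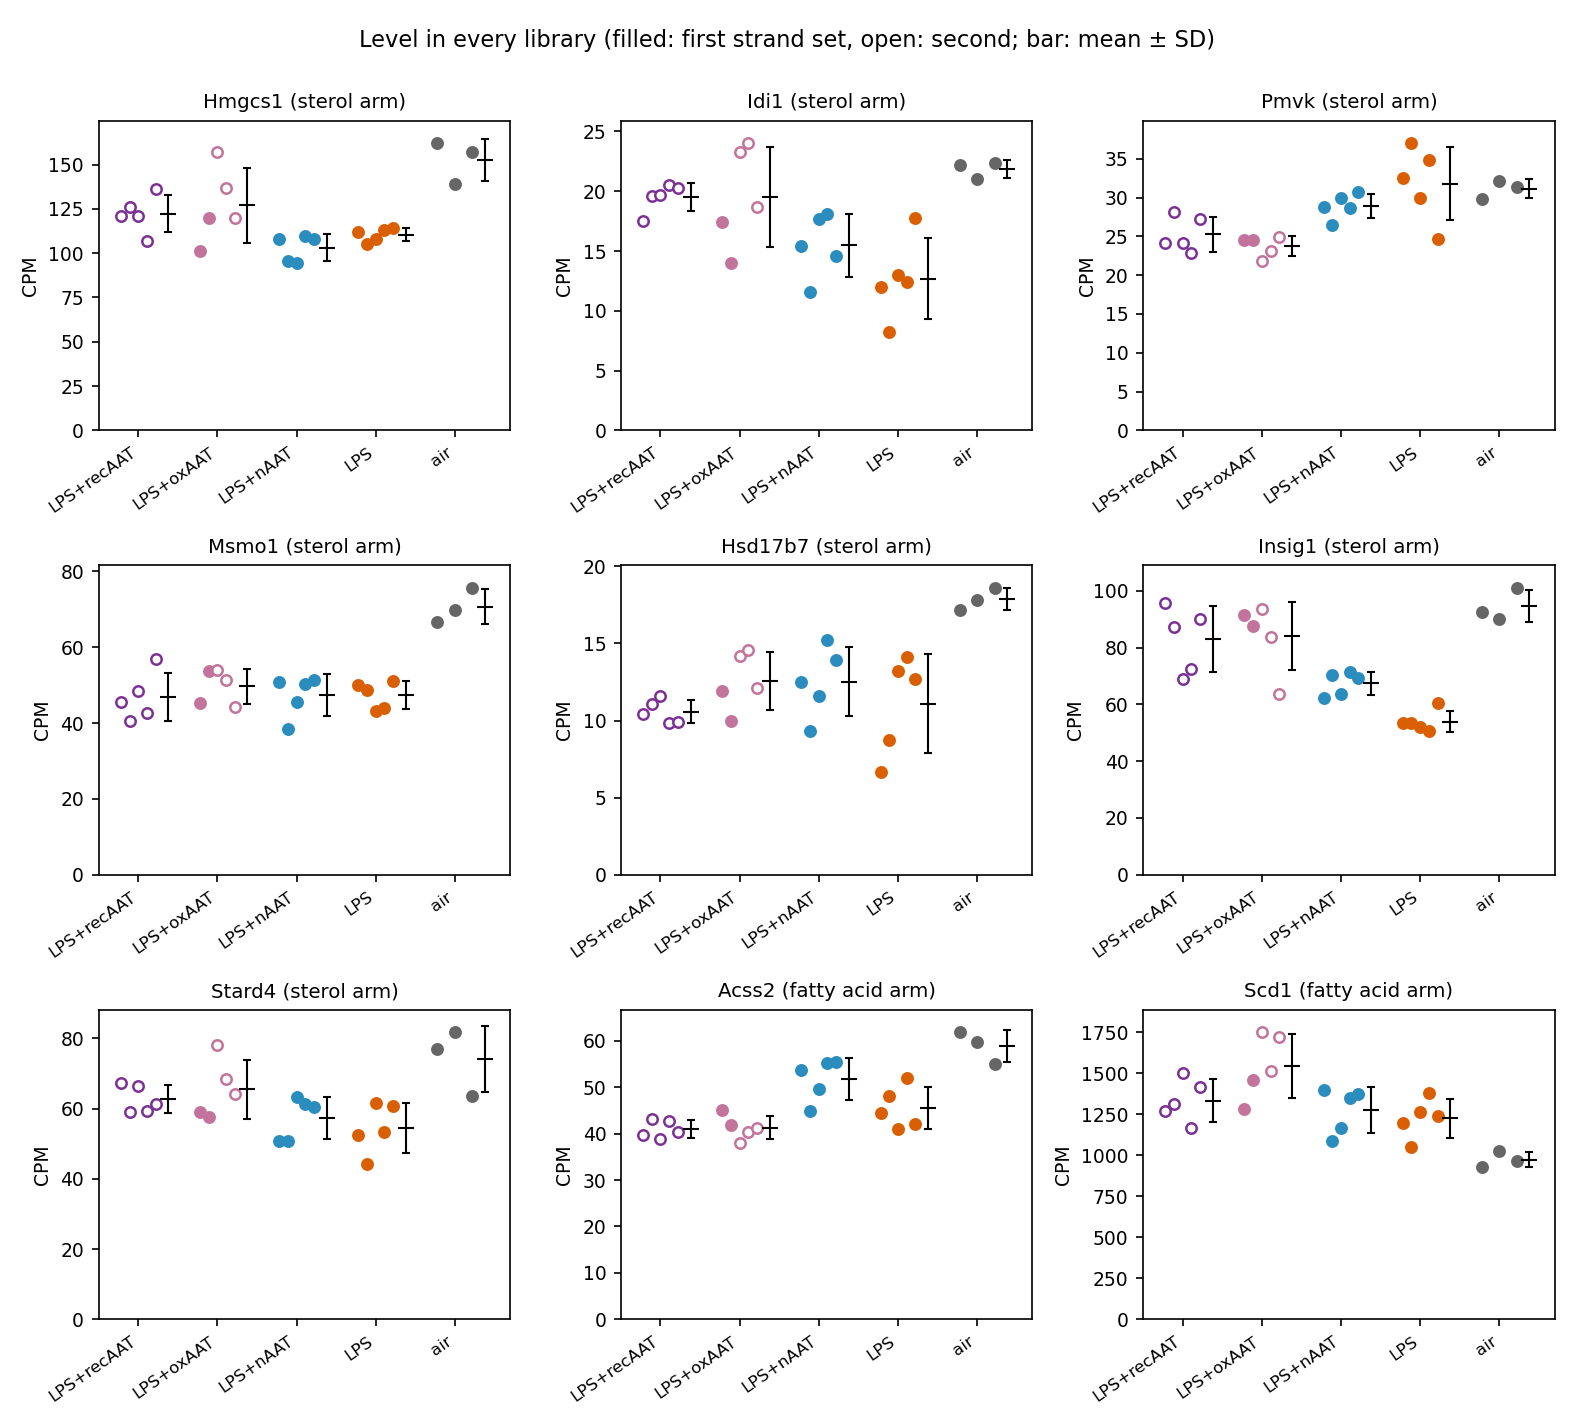
Level in CPM (y axes from 0) of 9 members in each library, by group; filled points are libraries of the first strand set, open points of the second, and the bar gives mean ± SD. For Insig1 the LPS points lie at 50.5 to 60.4 CPM, below all points of the other 4 groups, while Msmo1 stays below the air points in all 4 groups that breathed LPS.

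In the fatty acid arm 1 of 11 members fell after LPS and none rose, with a median log2 fold change of -0.05. Over all genes 1.68% were called lower and 2.71% higher. The one was Acss2 (chr2:155517948-155585724), which makes acetyl-CoA from acetate. It had 44.5, 48.2, 40.9, 52.0 and 42.0 CPM in LPS libraries, against 61.8, 59.8 and 55.0 CPM in air libraries (-0.37 ± 0.09, adjusted p = 0.0135). LPS replicate 1104 came nearest to air without reaching it. The call was lost without air replicates 2101 (adjusted p = 0.0982) or 2102 (0.0692) and within the first set (0.06).

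Other precursor genes were close to air: Acly had -0.05 ± 0.11 and Me1, the malic enzyme that supplies NADPH, had -0.11 ± 0.09. The synthesis enzymes lay on the higher side without passing. Fasn, the fatty acid synthase, averaged 593 ± 63.8 CPM in LPS (SD, n = 5) and 486 ± 25.8 CPM in air (SD, n = 3), with every LPS library above every air library (0.29 ± 0.13, adjusted p = 0.239). Acaca, which makes malonyl-CoA, had 0.18 ± 0.11 (adjusted p = 0.38).

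Among the desaturases Scd1 had 1198, 1053, 1264, 1380 and 1240 CPM in LPS libraries, against 931, 1024 and 966 CPM in air libraries. The groups did not overlap, and the difference did not pass the test (0.33 ± 0.11, adjusted p = 0.101). Scd2 went the other way at -0.23 ± 0.11 (adjusted p = 0.292), with every LPS library below every air library, and so did Fads1, the delta-5 desaturase (-0.17 ± 0.07, adjusted p = 0.187). Fads2 (-0.05), Elovl6 (-0.08) and Srebf1 (0.15) overlapped air. An unadjusted p under 0.05 was reached by 4 of the 11 members, against 3097 of all 17148 genes. Every LPS library lay above every air library for 2 of the 11 and below for 4, against 5.31% and 5.97% of all genes.

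The difference between the arms was not tested. As a description, the mean log2 ratio to the air mean was taken over each arm. The air mean is that of the same 3 air libraries, so their values centre on it by construction. Over the 21 sterol members the ratio was -0.32 to -0.20 in the 5 LPS libraries and -0.04 to 0.05 in the 3 air libraries. Over the 11 fatty acid members it was -0.15 to 0.13 in LPS libraries and -0.04 to 0.02 in air libraries. The sterol mean was below that of every air library in all 20 libraries from mice that breathed LPS, running from -0.39 to -0.17 in LPS+recAAT, -0.33 to -0.19 in LPS+oxAAT and -0.44 to -0.16 in LPS+nAAT.

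**Figure D3:**
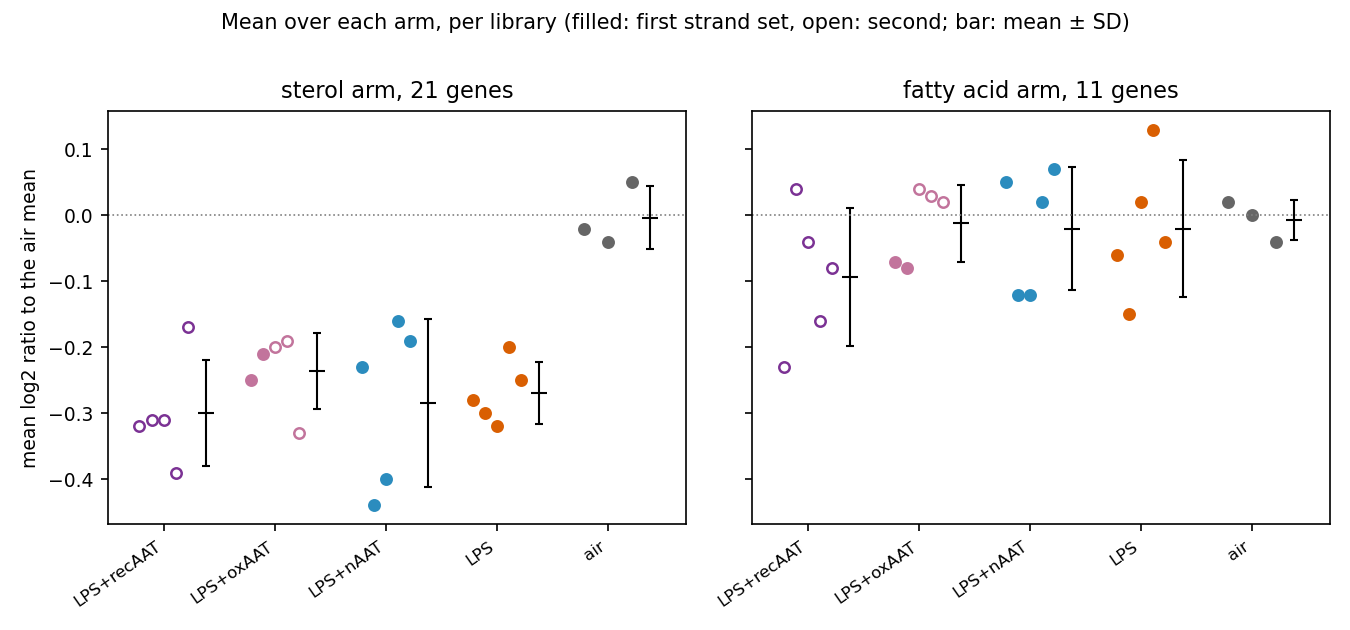
Mean over the arm of the log2 ratio to the air mean (y axis) for each library, by group, with the sterol arm left and the fatty acid arm right; open points are the second strand set and bars give mean ± SD. All sterol points of the 4 LPS groups lie at -0.16 or lower and the air points between -0.04 and 0.05, while the fatty acid points straddle 0 in every group. The air points centre on the air mean by construction.

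The longest transcripts of the 7 members that fell have 41.9% to 48.2% GC, and fold changes moved with GC in these libraries. Across the 32 members, Spearman's rho between the GC content of the longest transcript and the log2 fold change was 0.70 between LPS and air, where it was 0.40 over 17023 genes. This is a rank correlation across genes of the same libraries and is given as a description. Idi1 had the lowest GC of the members at 41.9%, Hmgcs1 had 43.1% and Insig1 had 48.2%, while the range ended at 59.1% for Scap. With the GC curve of each library removed, Insig1 fell by 0.78 (adjusted p = 4.85e-05), Idi1 by 0.61 (0.0047) and Msmo1 by 0.46 (0.0201). Hsd17b7 (-0.56, adjusted p = 0.0468), Stard4 (-0.32, 0.0282) and Acss2 (-0.33, 0.0362) were still called, and Fdft1 (-0.45, 0.0183) was called as well. Hmgcs1 was not (-0.31, adjusted p = 0.105). In that fit Scd1 rose in LPS (0.38, adjusted p = 0.0418) and Fads1 fell (-0.22, 0.0498).

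**Figure D4:**
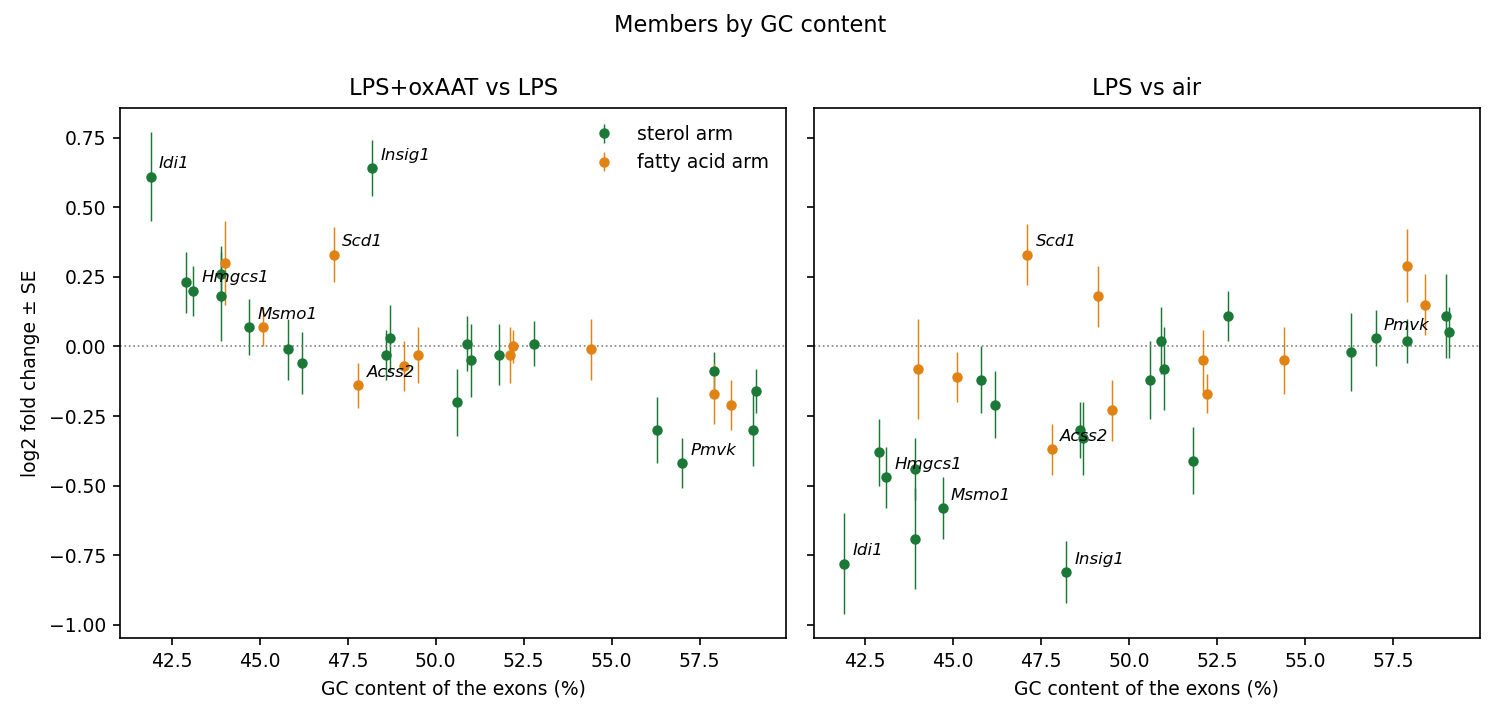
GC content of the longest transcript (x axis, %, labelled as of the exons) against log2 fold change ± SE (y axis) of the 32 members between LPS+oxAAT and LPS (left) and between LPS and air (right), with sterol members green and fatty acid members orange. Members of low GC such as Idi1 lie high on the left and low on the right, and Insig1, at 48.2% GC, lies away from members of like GC in both.

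Several cell type lists moved with LPS. All 8 cycling cell markers rose, with summed levels of 95.8 to 129 CPM in LPS libraries and 43.0 to 52.8 CPM in air libraries. Of 10 alveolar macrophage markers 3 rose (Marco, Car4 and Itgax) and Ear2 fell, with sums of 926 to 1128 CPM in LPS and 685 to 751 CPM in air. Of 8 neutrophil markers 2 rose (Il1r2 and Clec4d), with sums of 288 to 399 CPM in LPS and 202 to 256 CPM in air. Of 10 alveolar type 2 markers 9 were tested, of which Sftpd rose and Etv5 fell, with sums of 16611 to 19354 CPM in LPS and 14919 to 17912 CPM in air, and the fetal marker Dlk1 had no read in 11 of the 23 libraries. The part of these cell types in the sterol result was not tested.

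Fat cells also make fatty acids, and their markers were read as well. Of 11 adipocyte markers 10 were tested and none passed, and their sums were 27.7 to 135 CPM in LPS and 51.6 to 127 CPM in air, which overlap. Medians over all libraries ran up to 14.6 CPM for Car3, with 11.8 for Adrb3, 11.4 for Cfd, 10.7 for Cidec and 10.6 for Plin4. Among the defining ones Adipoq had a median of 1.64 CPM, Lep had no read in 5 libraries and Ucp1 had none in 4. Of 7 heart muscle markers none passed, at sums of 117 to 451 CPM in LPS and 103 to 449 CPM in air, and the atrial gene Nppa had no read in 12 libraries. Their part in the result was not tested.

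Genes around the pathway were read from lists of 6 sterol and isoprenoid genes, 12 fatty acid genes and 8 genes of sterol sensing and export. Of the first 6, none passed between LPS and air and 3 reached an unadjusted p under 0.05. All 6 lay lower (median -0.17), as did 8859 of all 17148 genes. Of the 12, none passed (median -0.19, 4 at an unadjusted p under 0.05). That unadjusted cut was reached by 3097 of all 17148 genes. Of the 8, Ch25h rose and Soat1 fell. Ch25h, the cholesterol 25-hydroxylase whose product holds back SREBP processing, had 15.0, 23.6, 14.1, 17.6 and 28.6 CPM in LPS libraries, against 2.49, 3.21 and 5.03 CPM in air libraries (2.47 ± 0.25, adjusted p = 3.3e-07). Every LPS library was well above every air library. Soat1, which esterifies cholesterol, had 125, 101, 116, 100 and 105 CPM in LPS libraries, against 159, 140 and 147 CPM in air libraries (-0.44 ± 0.10, adjusted p = 0.00934).

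The next comparisons ask which members differed when a form of AAT followed LPS, each against the same 5 LPS libraries. With nAAT none of the 21 sterol and none of the 11 fatty acid members passed, by edgeR or by the DESeq2 Wald test, with medians of -0.06 and -0.02. Over all genes 0.449% were called higher and 0.146% lower. At an unadjusted p under 0.05 there were 2 sterol members, Insig1 and Srebf2, and 1 fatty acid member, Acss2, against 2528 of all 17148 genes. Insig1 had 62.2, 70.2, 63.8, 71.5 and 69.2 CPM in LPS+nAAT libraries, every one above the 50.5 to 60.4 CPM of LPS libraries (0.32 ± 0.10, adjusted p = 0.119). Srebf2 was at -0.17 ± 0.07 (adjusted p = 0.267) and Acss2 at 0.19 ± 0.08 (0.261). Hmgcs1, with 103 ± 7.73 CPM in LPS+nAAT and 110 ± 3.69 CPM in LPS, and Msmo1, with 47.3 ± 5.47 CPM in LPS+nAAT and 47.4 ± 3.57 CPM in LPS (SD, n = 5 each), did not pass. Of the 8 cycling cell markers, 6 rose with nAAT, with sums of 146 to 213 CPM in LPS+nAAT and 95.8 to 129 CPM in LPS, and their part was not tested.

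With oxAAT, Insig1 and Idi1 rose and Pmvk fell among the 21 sterol members, and Scd1 rose among the 11 fatty acid members. Over all genes 3.94% were called higher and 0.77% lower. Insig1 had 91.5, 87.6, 93.5, 83.8 and 63.6 CPM in LPS+oxAAT libraries, against 50.5 to 60.4 CPM in LPS (0.64 ± 0.10, adjusted p = 0.00111). LPS+oxAAT replicate 5105 lay close to LPS, and the other 4 lay well above it. Idi1 had 17.4, 14, 23.3, 24 and 18.7 CPM in LPS+oxAAT libraries, which overlap the 8.26 to 17.8 CPM of LPS (0.61 ± 0.16, adjusted p = 0.0244). Pmvk (chr3:89454541-89469013), the phosphomevalonate kinase, had 24.6, 24.6, 21.8, 23.1 and 24.9 CPM in LPS+oxAAT libraries, against 32.6, 37.0, 30.0, 34.8 and 24.7 CPM in LPS libraries (-0.42 ± 0.09, adjusted p = 0.0107). LPS replicate 1105 alone reached down to the LPS+oxAAT values.

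Scd1 (chr19:44394455-44407879) had 1285, 1458, 1750, 1516 and 1725 CPM in LPS+oxAAT libraries, against 1053 to 1380 CPM in LPS libraries (0.33 ± 0.10, adjusted p = 0.0495). The 2 lowest LPS+oxAAT values were those of the first strand set. Msmo1 (0.07), Hsd17b7 (0.18), Sqle (-0.03) and Fdft1 (-0.03) did not pass, and the medians of the arms were -0.01 and -0.03. Of the genes around the pathway, Mbtps2, a protease that releases SREBP from the Golgi membrane, rose to 26.0 ± 4.3 CPM in LPS+oxAAT, against 16.5 ± 3.84 CPM in LPS (SD, n = 5 each; 0.65 ± 0.14, adjusted p = 0.0107). The elongase Elovl5 rose as well (0.33 ± 0.09, adjusted p = 0.0259), and no gene of the 8 for sensing and export passed.

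Of the 4 calls with oxAAT, that of Insig1 was kept when the strand set was accounted for. With the set as a term it was 0.73 ± 0.12 (adjusted p = 0.0145), where 0.035% of all genes were called. Within the first set, which leaves LPS+oxAAT replicates 5101 and 5102, it was 0.73 ± 0.09 (adjusted p = 0.00219), where 0.0757% were called. With the set as a term Idi1 was at 0.30 (adjusted p = 0.912), Pmvk at -0.37 (0.476) and Scd1 at 0.16 (0.956). With the GC curve removed Insig1 was at 0.63 (adjusted p = 0.00128), Idi1 at 0.39 (0.0794), Pmvk at -0.26 (0.109) and Scd1 at 0.29 (0.113). The rho between GC and fold change was -0.76 across the 32 members and -0.54 across all genes.

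The call of Insig1 held without any of the 10 libraries, at 0.60 to 0.72. That of Idi1 was lost without LPS replicates 1101 (adjusted p = 0.0637), 1102 (0.0827) or 1104 (0.0626) or LPS+oxAAT replicates 5103 (0.105) or 5104 (0.086), and that of Pmvk without LPS+oxAAT replicate 5103 (0.0502). That of Scd1 was lost without LPS replicates 1101 (0.102), 1102 (0.165), 1103 (0.0591) or 1104 (0.0559) or LPS+oxAAT replicates 5103 (0.185), 5104 (0.0931) or 5105 (0.135). Without LPS+oxAAT replicate 5103 the sterol count was 1, where 0.975% of all genes were called. The share of all genes called moved widely in this comparison, being 11% without LPS+oxAAT replicate 5102 and 0.0929% with the 2 groups fitted alone, where Insig1 was the sterol member called.

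With recAAT, Insig1 and Idi1 rose and Pmvk fell, and no fatty acid member passed by edgeR or the DESeq2 Wald test. At an unadjusted p under 0.05 there were 2 of the 11, Acaca and Fasn, both lower, against 4056 of all 17148 genes. Over all genes 6.47% were called higher and 2.02% lower. Insig1 had 95.8, 87.1, 68.9, 72.5 and 90.2 CPM in LPS+recAAT libraries, all above the 50.5 to 60.4 CPM of LPS (0.62 ± 0.10, adjusted p = 0.000693). Idi1 had 17.5, 19.6, 19.7, 20.5 and 20.3 CPM in LPS+recAAT libraries (0.62 ± 0.16, adjusted p = 0.0146), and only LPS replicate 1105 at 17.8 CPM overlapped them. Pmvk had 24.1, 28.1, 24.1, 22.9 and 27.3 CPM in LPS+recAAT libraries (-0.33 ± 0.09, adjusted p = 0.0241), and LPS replicate 1105 again lay within their range.

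The medians were -0.12 in both arms. Hmgcs1 (0.15), Msmo1 (-0.02) and Stard4 (0.20) did not pass, and Hsd17b7 averaged 10.6 ± 0.769 CPM in LPS+recAAT and 11.1 ± 3.2 CPM in LPS (SD, n = 5 each). Around the pathway, Mbtps2 (0.57 ± 0.14, adjusted p = 0.0125) and Elovl5 (0.36 ± 0.09, 0.0091) rose. Elovl1, an elongase of long saturated chains (-0.52 ± 0.13, adjusted p = 0.0147), and Aacs, which activates acetoacetate (-0.55 ± 0.10, 0.002), fell.

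All LPS+recAAT libraries lie in the second strand set and all LPS libraries in the first. With the set as a term, estimated from the LPS+oxAAT libraries, Insig1 was at 0.78 ± 0.17 (adjusted p = 0.229), Idi1 at 0.13 ± 0.25 (0.942) and Pmvk at -0.25 ± 0.16 (0.771), and 0% of all genes were called. With the GC curve removed Insig1 was called (0.62, adjusted p = 0.00071) and Idi1 (0.38, 0.0562) and Pmvk (-0.18, 0.256) were not, where rho was -0.73 across members and -0.50 across all genes. Leaving out single libraries kept the calls of Insig1 and Idi1. That of Pmvk was lost without LPS replicates 1101 (0.0614), 1102 (0.0885) or 1104 (0.0772) or LPS+recAAT replicates 6101 (0.0537), 6103 (0.0616) or 6104 (0.0634). Of the cycling cell markers 4 rose, with sums of 128 to 158 CPM in LPS+recAAT and 95.8 to 129 CPM in LPS, and with oxAAT 1 rose, with sums of 114 to 148 CPM. No marker of the adipocyte, alveolar type 2, macrophage, neutrophil or heart lists passed with any form of AAT against LPS, and the part of the cycling cells was not tested.

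**Figure D5:**
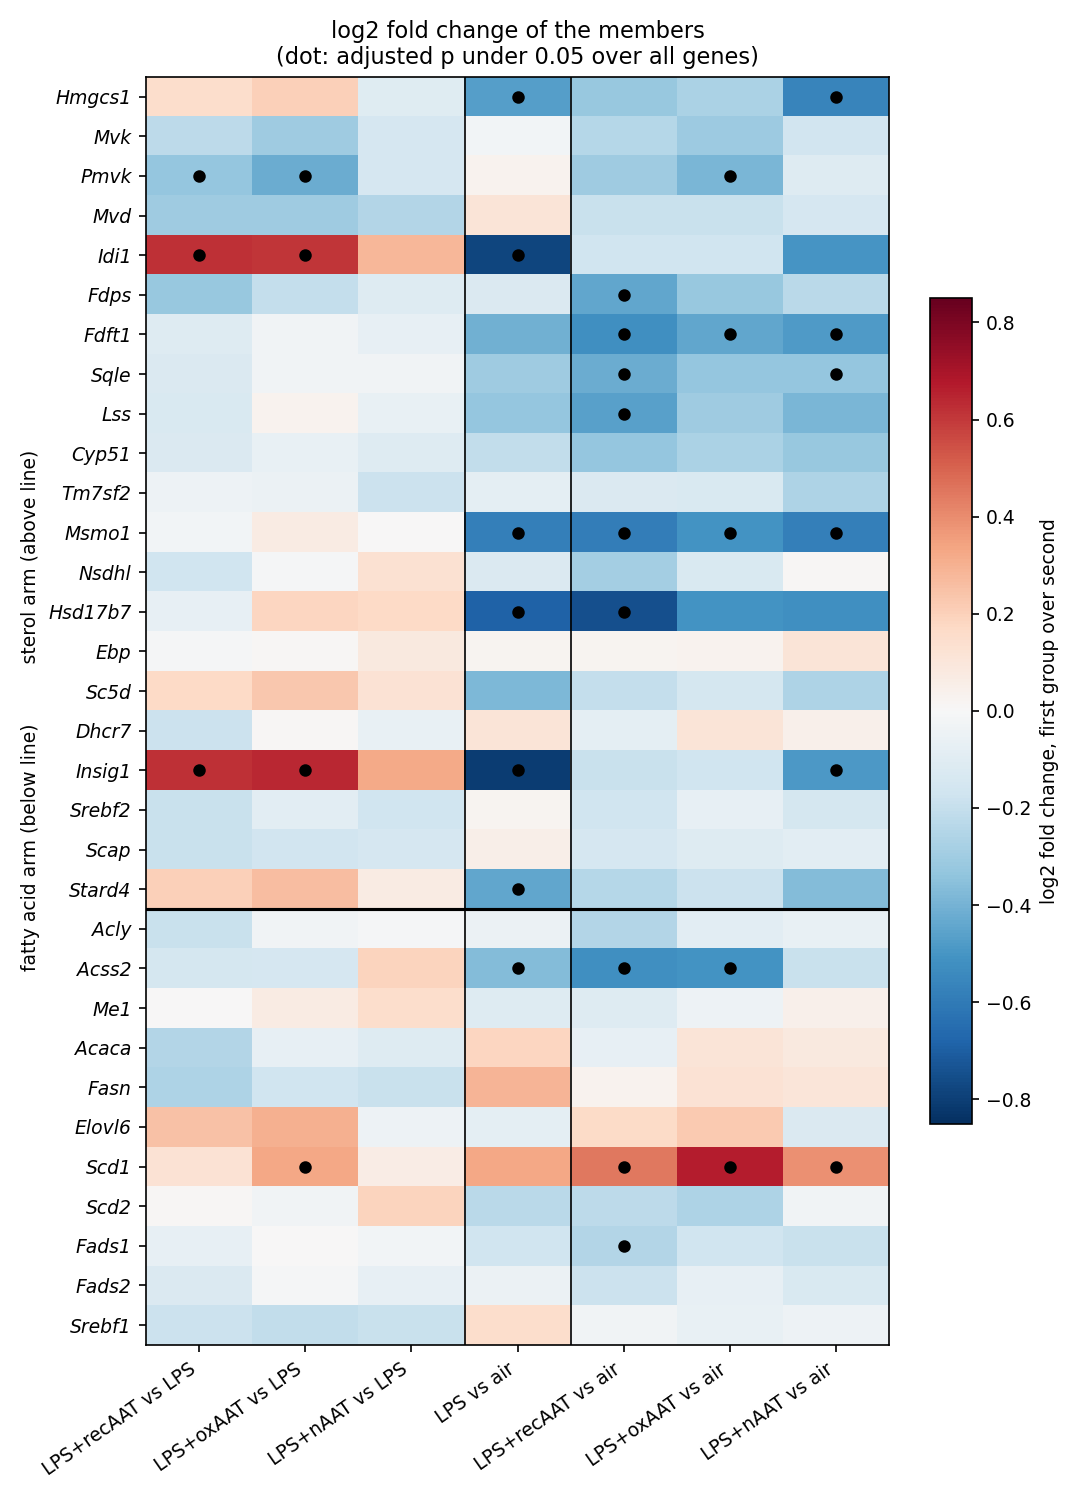
log2 fold change of the 32 members (rows, sterol arm above the line) in 7 comparisons (columns), first group over second, red for higher and blue for lower; a dot marks an adjusted p under 0.05 over all genes. The columns against LPS hold few dots, at Insig1, Idi1, Pmvk and Scd1, and Msmo1 has a dot in all 4 columns against air.

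Set against the 3 air libraries, which all 4 LPS groups share, some sterol members were lower after each form of AAT, and most did not pass. The median of the arm was -0.24 with recAAT, where 6 of the 21 members fell, -0.19 with oxAAT, where 3 fell, and -0.26 with nAAT, where 5 fell, and none rose. Over all genes 2.62% were called lower and 4.21% higher with recAAT, 1.04% and 2.72% with oxAAT, and 1.67% and 3.95% with nAAT. Msmo1 fell in all 3, at -0.59 ± 0.11 (adjusted p = 0.000696) in LPS+recAAT, -0.51 ± 0.11 (0.00497) in LPS+oxAAT and -0.58 ± 0.11 (0.00095) in LPS+nAAT. Fdft1 also fell in all 3, at -0.52 ± 0.12 (0.00882) in LPS+recAAT, -0.44 ± 0.12 (0.0426) in LPS+oxAAT and -0.48 ± 0.12 (0.0175) in LPS+nAAT. These comparisons rest on the same air mice and are not independent of each other.

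With recAAT the enzymes from farnesyl diphosphate to lanosterol, Fdft1, Sqle (-0.42 ± 0.10, adjusted p = 0.00797) and Lss (-0.46 ± 0.13, 0.0318), all fell, along with Fdps (-0.44 ± 0.13, 0.0439) and Hsd17b7 (-0.75 ± 0.18, 0.00936). With oxAAT the third gene besides Msmo1 and Fdft1 was Pmvk (-0.39 ± 0.10, adjusted p = 0.0317). With nAAT Hmgcs1 (-0.56 ± 0.11, adjusted p = 0.000942), Sqle (-0.33 ± 0.10, 0.0481) and Insig1 (-0.49 ± 0.11, 0.00685) fell.

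Insig1 did not pass against air with recAAT (-0.19 ± 0.11, adjusted p = 0.406) or oxAAT (-0.17 ± 0.11, 0.543), and neither did Idi1 (-0.17 ± 0.18 in both, adjusted p = 0.704 and 0.756). As shares of the air mean, Insig1 stood at 87.7% in LPS+recAAT, 88.8% in LPS+oxAAT, 71.3% in LPS+nAAT and 57.1% in LPS. Idi1 stood at 89.2% in LPS+recAAT, 89.1% in LPS+oxAAT, 70.9% in LPS+nAAT and 58.0% in LPS. Msmo1, by contrast, stood at 66.2% in LPS+recAAT, 70.3% in LPS+oxAAT, 67.0% in LPS+nAAT and 67.1% in LPS, and Hmgcs1 at 80.2% in LPS+recAAT, 83.1% in LPS+oxAAT, 67.7% in LPS+nAAT and 72.3% in LPS. These shares do not account for the strand set, and all LPS+recAAT libraries lie in the second. The first set alone leaves LPS+oxAAT replicates 5101 and 5102. There LPS+oxAAT against air was -0.47 ± 0.23 for Idi1, -0.46 ± 0.11 for Hmgcs1, -0.50 ± 0.13 for Msmo1 and -0.07 ± 0.11 for Insig1. In the same fit LPS+nAAT against air was -0.50 ± 0.18 for Idi1 and -0.56 ± 0.09 for Hmgcs1. By mean, Insig1 was lowest in LPS and next in LPS+nAAT, without overlap between those 2 groups. LPS+recAAT and LPS+oxAAT followed, each overlapping LPS+nAAT below and air above, and did not differ beyond their spread.

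In the fatty acid arm Scd1 rose against air with each form of AAT, at 0.45 ± 0.12 (adjusted p = 0.0139) in LPS+recAAT, 0.67 ± 0.12 (0.000589) in LPS+oxAAT and 0.39 ± 0.11 (0.0437) in LPS+nAAT. It averaged 1333 ± 130 CPM in LPS+recAAT, 1547 ± 194 CPM in LPS+oxAAT, 1276 ± 139 CPM in LPS+nAAT (SD, n = 5 each) and 974 ± 47.1 CPM in air (SD, n = 3), and no library of these groups reached down to the air values. Acss2 fell with recAAT, where it had 39.7, 43.1, 38.8, 42.8 and 40.4 CPM (-0.52 ± 0.09, adjusted p = 0.000281), and with oxAAT, where it had 45, 41.9, 38, 40.4 and 41.2 CPM (-0.51 ± 0.09, 0.000555). With nAAT it had 53.7, 44.9, 49.7, 55.2 and 55.5 CPM and did not pass (-0.19 ± 0.09, adjusted p = 0.287). Fads1 fell with recAAT (-0.25 ± 0.07, adjusted p = 0.0349). The medians of the arm were -0.11 with recAAT, -0.06 with oxAAT and -0.04 with nAAT.

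With the strand set as a term, the sterol counts against air were 1 with recAAT and 1 with oxAAT, Hmgcs1 in both (-0.64 ± 0.15, adjusted p = 0.0263, and -0.47 ± 0.12, 0.0362), and the fatty acid counts were 0 and 1 (Acss2 with oxAAT, -0.44 ± 0.11, adjusted p = 0.0359). In that fit 1.62% of all genes were called with recAAT and 1.96% with oxAAT. Of the calls lost, Msmo1 was at -0.60 (adjusted p = 0.0972) with recAAT and -0.51 (0.0569) with oxAAT, and Hsd17b7 was at -1.07 (0.0633), Fdft1 at -0.28 (0.54) and Scd1 at 0.17 (0.675) with recAAT. With air replicate 2105 left out the sterol counts were 2 with recAAT, 0 with oxAAT and 3 with nAAT, where 4.37%, 2.25% and 4.02% of all genes were called. The calls of Acss2 with recAAT and oxAAT, of Msmo1 with recAAT and nAAT, of Hsd17b7 with recAAT, of Scd1 with oxAAT and of Hmgcs1 with nAAT held without any single library. Without air replicate 2105 the calls of Fdft1 (adjusted p = 0.0762) and Sqle (0.067) with recAAT, Msmo1 with oxAAT (0.0502) and Fdft1 (0.117) and Insig1 (0.0529) with nAAT were lost, and that of Scd1 with recAAT was lost without air replicates 2101 (0.0778) or 2105 (0.0598). The others were lost without most single libraries, at an adjusted p of up to 0.264 for Fdps without air replicate 2105. With recAAT, Fdps held without replicates 6105 or air 2102, Lss without 6101 or 6102 and Fads1 without 6101 or 6105. With oxAAT, Pmvk held without 5101, 5102 or 5105 and Fdft1 without 5102, and with nAAT, Sqle held without 4105 and Scd1 without 4102 or 4103.

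Around the pathway, Ch25h rose against air with each form, to 19.8 ± 2.55 CPM in LPS+recAAT (2.48 ± 0.25, adjusted p = 1.9e-07), 18.7 ± 3.69 CPM in LPS+oxAAT (2.39 ± 0.24, 5.12e-07) and 17.3 ± 2.71 CPM in LPS+nAAT (2.28 ± 0.24, 5.95e-07; SD, n = 5 each), against 3.58 ± 1.31 CPM in air (SD, n = 3). With recAAT, Soat1 (-0.59 ± 0.10, adjusted p = 0.000303), Elovl1 (-0.88 ± 0.15, 0.000343), Aacs (-0.46 ± 0.12, 0.016) and Mid1ip1 (-0.45 ± 0.11, 0.00919), which promotes the activity of acetyl-CoA carboxylase, fell. With oxAAT Mid1ip1 fell (-0.43 ± 0.11, adjusted p = 0.0173), and with nAAT Mlxipl fell (-0.72 ± 0.21, 0.0477), which encodes the carbohydrate-responsive factor ChREBP.

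Cell type markers differed from air in these groups as well. All 8 cycling cell markers rose with each form of AAT. Of 8 neutrophil markers 2 rose with recAAT, 2 with oxAAT and 3 with nAAT, with sums of 221 to 445 CPM in LPS+recAAT, 184 to 280 CPM in LPS+oxAAT, 258 to 717 CPM in LPS+nAAT and 202 to 256 CPM in air. Of 10 alveolar macrophage markers, 4 rose and 3 fell with recAAT, 4 rose with oxAAT and 6 rose with nAAT, with sums of 673 to 1157 CPM in LPS+recAAT, 855 to 1146 CPM in LPS+oxAAT, 1162 to 1468 CPM in LPS+nAAT and 685 to 751 CPM in air. Of 9 alveolar type 2 markers tested, 2 rose and 3 fell with recAAT, 1 rose and 1 fell with oxAAT, and 4 rose and 1 fell with nAAT. No adipocyte or heart marker passed, and the part of these cells in the results was not tested.

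The forms of AAT were also set against each other. Between LPS+recAAT and LPS+oxAAT no member passed by either tool (2 at an unadjusted p under 0.05, Dhcr7 and Scd1, both lower), where 0% of all genes were called higher and 0.0175% lower. The interval of the Insig1 difference was -0.22 to 0.18. Between LPS+oxAAT and LPS+nAAT no member passed by edgeR, and 1 fatty acid member did by DESeq2. At an unadjusted p under 0.05 edgeR had 8 of the 32 members and 2028 of all 17148 genes. It called 0.216% of all genes higher and 0.128% lower. Insig1 was at 0.32 ± 0.10 (adjusted p = 0.169) and Acss2 at -0.32 ± 0.08 (0.0637).

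Between LPS+recAAT and LPS+nAAT, Acss2 fell (-0.34 ± 0.08, adjusted p = 0.0238), and every LPS+recAAT library lay below every LPS+nAAT library. Over all genes 1.21% were called higher and 0.723% lower. Insig1 was at 0.30 ± 0.10 (adjusted p = 0.121), and no sterol member passed by either tool. At an unadjusted p under 0.05 there were 5 of the 21, against 2549 of all 17148 genes. The call of Acss2 was lost without LPS+nAAT replicates 4101 (0.0588), 4104 (0.0645) or 4105 (0.0721) or LPS+recAAT replicates 6101 (0.0905) or 6103 (0.0617), and with the strand set as a term (-0.21, 0.527). Soat1 (-0.42 ± 0.09, adjusted p = 0.0146) and Elovl1 (-0.51 ± 0.13, 0.045) also fell. Of 10 alveolar macrophage markers 5 fell, with sums of 673 to 1157 CPM in LPS+recAAT and 1162 to 1468 CPM in LPS+nAAT. Of 9 alveolar type 2 markers tested 1 fell, with sums of 15949 to 18873 CPM in LPS+recAAT and 17209 to 20653 CPM in LPS+nAAT. All 9 had fold changes below 0 (median -0.18), as did 8467 of all 17148 genes. The part of these cells was not tested. No difference in Insig1 between nAAT and the other forms was thus shown, although its rise against LPS passed with those forms and not with nAAT.

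Counting could blur a few members. Exons of Fdft1 overlap those of Ctsb, a cathepsin gene on the opposite strand, over 18.3% of their length, and Ctsb averaged 726 CPM over all libraries against 48.1 CPM for Fdft1. Exons of Fdps overlap the predicted gene Gm43738 on the same strand over 26.7% of their length. Exons of Tm7sf2 overlap Vps51 on the same strand over 12.1%, and those of Cyp51 overlap Akap9 on the opposite strand over 3.76%. Acss2 overlaps Gss on the opposite strand over 3.89%. Insig1, Msmo1, Hsd17b7, Stard4 and Scd1 overlap no other annotated exon, and Hmgcs1 and Idi1 overlap only predicted genes, over 12.1% and 9.22%. Which strand setting the authors counted with was not stated in the labels.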

How the data were processed

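Lung RNA of 23 mice was sequenced from stranded poly(A) libraries, per the labels' protocols. The authors deposited raw counts per Ensembl gene with no normalization. STAR 2.4.0.1, HTSeq 0.11.1, Trimmomatic (0.36 and 0.38), FastQC 0.11.8 and the build GRCm38 are named, per the submitters' processing notes. The annotation and the strand setting of counting are not stated there. The 5 summary lines (12.6% to 19.8% of reads tallied) were left out. GENCODE M21 named 40254 genes and left 1134 unnamed.

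Counts were fitted with edgeR 4.0.16 in R 4.3.3 (TMM factors 0.978 to 1.028, filterByExpr by group, robust quasi-likelihood, two-sided F test), with 1 mean per group over all 23 libraries and no covariate, for 10 comparisons, and p-values were adjusted over 17148 genes by the Benjamini-Hochberg method. The script was tested on simulated data. CPM are TMM-scaled, and each SE is the log2 fold change divided by the square root of F. Levels per kilobase used the union of annotated exons, and GC content is that of the longest transcript of each gene. Libraries held 14.8 to 47.9 M gene counts (median 28.7 M), and low counts mean that counting error adds most to Elovl6, Hsd17b7, Tm7sf2 and Idi1.

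The members, lists and alternatives were chosen with earlier results of these data known. Values in every library are given for members called between LPS and air or between AAT and LPS (at most 8 per arm and comparison by adjusted p); other called pathway genes are named, at most 6 per comparison. Alternatives were DESeq2 1.42.0 size factors, library totals, no filter, a stricter filter (CPM of 1 in 5 libraries), the DESeq2 Wald test, a fit of the 2 groups alone, a block by the final digit of the mouse number, the strand set (above or below 2%) as a term, the first set alone, a GC curve (lowess, span 0.3) removed from each library, and leaving out each library.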

Additional observations from a re-analysis of the deposited data

Results flagged for a closer look

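In 4 of 128 groups of 5 libraries tested (32 members in 4 groups), 1 library stood apart from the other 4, its gap to the nearest being over 0.71 of the range of the group. Chance flags about 1 in 20 groups, which is 6.4 here. LPS+recAAT replicate 6105 was highest for Mvk at 32.3 CPM, where the other 4 had 25.3 to 26.7 CPM, and for Fdps at 76.1 CPM, where the others had 50.5 to 57.9 CPM. LPS replicate 1104 was highest for Fasn at 704 CPM, where the others had 552 to 589 CPM. LPS replicate 1101 was highest for Scd2 at 821 CPM, where the others had 747 to 768 CPM.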

How the results depend on the processing

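Of 35 member calls, 271 of 337 values under alternatives other than leaving out a library kept direction and call, 66 kept direction and lost the call, and none reversed; on leaving out a library it was 209 and 87 of 296. Counts of called members that moved were as follows, each with the calls over all genes. Genes tested numbered 17148, or 26445 with no filter, 17179 in the first set and 16147 to 16472 with the 2 groups alone. Against air, the fatty acid count after LPS (1 as reported) was 2 by the DESeq2 Wald test, 0 with the 2 groups alone, 0 in the first set and 3 with the GC curve removed. Calls over all genes (753 as reported) were 1093, 354, 543 and 679 in that order. With recAAT the sterol count (6) was 1 and the fatty acid count (3) 0 with the set term, where calls over all genes (1171) were 278. With oxAAT the sterol count (3) was 1 with no filter, with the 2 groups alone, with the set term and in the first set, and the fatty acid count (2) was 1 with the set term and 0 in the first set. Calls over all genes (645) were 538 with no filter, 414 with the 2 groups alone, 336 with the set term and 251 in the first set. With nAAT the sterol count (5) was 8 with the replicate block, and the fatty acid count (1) was 0 with no filter, 2 by the Wald test and 0 with the replicate block. Calls over all genes (964) were 998 with the block, 835 with no filter and 1228 by the Wald test. Against LPS, the sterol count with recAAT (3) was 0 with the set term and 1 with the GC curve removed. Calls over all genes (1456) were 0 and 720 there. With oxAAT the sterol count (3) was 1, and the fatty acid count (1) was 0, with the 2 groups alone, the set term, the first set or the GC curve removed, and the fatty acid count was 0 with no filter too. Calls over all genes (808) were 15, 6, 13, 271 and 633 in that order. Between forms, the fatty acid count was 1 by the Wald test for oxAAT over nAAT (0 as reported), and 0 with no filter or the set term for recAAT over nAAT (1). Calls over all genes were 241 for the first (59 as reported), and 251 and 0 for the second (331). Some of these settings leave fewer libraries, and the cause of the moves was not tested.

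Leaving out 1 library, the sterol and fatty acid counts ran from 3 to 7 and 0 to 1 after LPS against air, 2 to 5 and 1 to 3 with recAAT, 0 to 3 and 2 to 2 with oxAAT and 3 to 6 and 0 to 1 with nAAT against air, and 2 to 5 and 0 to 2 with recAAT and 1 to 4 and 0 to 2 with oxAAT against LPS. They were 0 throughout with nAAT against LPS and between forms, except 0 to 1 for fatty acid members between recAAT and nAAT. The calls over all genes, of 17068 to 17428 tested, moved as well. They ran from 391 to 904 after LPS against air. Against air they were 762 to 1055 with recAAT, 392 to 785 with oxAAT and 655 to 901 with nAAT. Against LPS they were 865 to 2316 with recAAT, 167 to 1881 with oxAAT and 20 to 144 with nAAT. Between recAAT and nAAT they were 88 to 282. The final digit of the mouse number was read as a possible pairing of libraries. Between LPS and air the 3 same-digit pairs had correlations of -0.29 to -0.11 (median -0.13, against 0.02 for other pairs). Between LPS+oxAAT and LPS the 5 same-digit pairs had -0.11 to 0.52 (median 0.25, against -0.13). The same-digit median was above that of other pairs in most comparisons, and no comparison had all its pairs over 0.1. Whether libraries were paired by digit was not tested further.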
